A study of Mus musculus with 2 samples.

Results

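The cells described here carried at least 2 unique molecular identifiers (UMIs, each standing for 1 captured RNA molecule) of Kit and at least 1 of Ptprc, the pan-leukocyte surface phosphatase CD45, in healing mouse skull bone. They were chosen by these counts together with upper limits that kept out other cells with Kit. Mpo, Elane, Prtn3 and Ctsg, the granule proteins of promyelocytes, had to make up less than 0.3% of the UMIs of a cell. The mast cell and basophil gene Ms4a2 had to stay below 2 UMIs and the B cell receptor genes Cd79a and Cd79b at 3 UMIs or fewer. The neutrophil genes S100a8 and S100a9 had to stay below 1% of the UMIs, and so did the collagen genes Col1a1, Col1a2 and Col3a1. The limits of the study (500 to 140000 UMIs and 200 to 9500 genes per cell, at most 15% of UMIs mitochondrial) left 17129 cells, of which 263 met the rule, 115 of 9036 in the gambogic amide (GA) library and 148 of 8093 in the control library.

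The study compared frontal bone healing after treatment with GA, a small molecule, with healing under vehicle. Both groups were male C57BL/6J mice (labelled C57BL/6) aged 2 months with a circular calvarial defect of 1.8 mm, and bone of about 3 mm edge length around the defect was digested with collagenases 7 days after injury. The GA group received GA intraperitoneally in 100 µL of 10% DMSO, at 1.2 mg/kg in the sample labels and 2 mg/kg in the study's methods, and the control group received the same volume of 10% DMSO. Injections began 24 hours before injury and went on daily for 1 week. Cells of 5 mice were pooled in each library, no surface marker was used to sort them, and red blood cells were lysed. There was thus 1 library per condition, so no test between GA and control could be made. All intervals below are 95% intervals (exact Clopper-Pearson for shares, exact Poisson or binomial for UMI counts, log-normal for ratios of shares) that cover counting error only, not the spread between mice. Those for UMI counts treat every UMI as independent, so they also leave out the spread between cells and are too narrow where few cells hold most UMIs. Where no cell held a UMI, the limit given is instead 3 counts of the cells examined, and it concerns cells with a UMI, not cells that express the gene.

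Kit encodes the receptor tyrosine kinase for stem cell factor, the product of Kitl. Haematopoietic stem and progenitor cells depend on this receptor, and most blood lineages switch it off as they mature, while mast cells, some dendritic cells and innate lymphoid cells keep or regain it. Skull bone holds marrow of its own, so the edge of a calvarial defect can yield progenitors as well as cells recruited by the injury. Kit lies on mm10 chromosome 5 from 75574916 to 75656722 on the plus strand, and Ptprc on chromosome 1 from 138062861 to 138175708 on the minus strand.

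The GA library held 182949385 UMIs in 9322 barcodes and the control library 214993030 UMIs in 8718 barcodes. The Kit-positive, Ptprc-positive cells held more UMIs per cell in GA, with a median of 32067 (range 2882 to 132358) against 20911.5 in control (range 4820 to 121238). All other cells showed the opposite order, with medians of 11117 UMIs in GA and 17363 in control. The median number of genes per cell was 5815 in GA and 4374.5 in control. The median mitochondrial share was 3.36% and 3.01%. The libraries shared 23 barcodes, and 2 of the 263 cells carried one of them.

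The Kit level chose these cells and is given as a description. Kit stood at 132 counts per 1000000 UMIs (CPM, 121 to 143) in GA and 179 CPM (166 to 192) in control, with a median of 3 UMIs per cell in both libraries and highest counts of 21 and 36. The cells held 26.6% of the Kit UMIs of the GA library and 35.6% of those of the control library. Just inside the limit, 36 GA and 39 control cells had exactly 2 Kit UMIs, and just outside it 45 and 64 cells that met every other criterion had exactly 1. The granule protein share reached 0.282% in GA and 0.293% in control inside the limit, and the nearest cells outside it stood at 0.370% and 0.316%. The granule protein limit alone kept out 90 GA and 23 control cells, the S100 limit 57 and 28, the Cd79 limit 8 and 12, the Ms4a2 limit 5 and 7 and the collagen limit 0 and 7. Several limits together kept out 68 and 31 cells, and 34 and 84 cells with 2 or more Kit UMIs had no Ptprc UMI.

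Outside these cells Kit was mostly at a low level. Across all other cells Kit stood at 8.61 CPM in GA and 6.77 CPM in control, with a UMI in 7.13% and 5.90% of them. Cells with C1qa, a complement gene of macrophages, should lack Kit, and 0.502% of 797 in GA and 1.11% of 1355 in control had a Kit UMI at median depths of 21129 and 23329 UMIs. Among cells with S100a8 and S100a9 of at least 1%, the shares with a Kit UMI were 6.99% and 8.10%, at median depths of 7477 and 5462 UMIs. Dendritic cells with Xcr1 and Clec9a, markers of the cross-presenting type 1 subset, stood far higher, with a Kit UMI in 8 of 8 GA cells and 12 of 16 control cells. Kit UMIs were also present in 22.4% of 49 GA and 33.3% of 138 control cells with Cd209a and in 20.9% of both the 67 GA and the 91 control natural killer cells with Ncr1 and Klrb1c. The UMI minimums that define these comparison populations were set after the data were seen.

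The working name of the population, early progenitors, rests on 4 further markers, which only some of the cells carried. Cd34, a sialomucin of haematopoietic progenitors and vessels (chromosome 1, 194938819 to 194961279, plus strand), stood at 139 CPM in GA and 117 CPM in control and was detected in 58 of 115 and 55 of 148 cells (50.4% and 37.2%). Cd27, a receptor of the tumour necrosis factor family (chromosome 6, 125232622 to 125237010, minus strand), stood at 45.3 and 19.6 CPM with a UMI in 46.1% and 26.4% of cells. Adgrg1, the adhesion receptor GPR56 (chromosome 8, 94974751 to 95014217, plus strand), stood at 125 and 114 CPM with a UMI in 61.7% and 35.1%. Gata2, a transcription factor of stem cells, megakaryocytes and mast cells (chromosome 6, 88193891 to 88207032, plus strand), stood at 27.1 and 36.9 CPM with a UMI in 31.3% and 18.2%. The neutrophil-lineage cells with S100a8 and S100a9, which should lack all 4, had a Cd34 UMI in 3.17% and 2.06% of cells, a Cd27 UMI in 1.8% and 1.14%, an Adgrg1 UMI in 0.808% and 0.778% and a Gata2 UMI in 0.182% and 0.0915%, at the lower median depths given above. Cd34 was not limited to blood progenitors in this tissue, since cells rich in collagen mRNA held 375 CPM of it in GA and 234 CPM in control. After thinning each cell to 5000 UMIs, which sets all cells to 1 depth and leaves out 1 shallower cell per library, none of the 4 markers was detected in 46 of 114 GA cells (40.4%) and 89 of 147 control cells (60.5%).

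Clustering of the 263 cells on 2000 variable genes, with the cell cycle lists left out, gave 9 clusters. The 4 markers were concentrated in 3 of them, which held 95 cells, 57 in GA and 38 in control. The other 168 cells fell into erythroid-like, dendritic-like, lymphoid-like and mixed clusters and an unnamed cluster led by Ly6d and Siglech. The label of early progenitors therefore holds for a part of the cells only, and they are called Kit-positive, Ptprc-positive cells here. Clusters are described by the genes that made them, so their marker values carry no test, and the cluster groupings were set after the data were seen. Doublets were not removed from the values given here. Scrublet marked 0 GA cells and 26 control cells (0.321%) at its automatic threshold, which is too few to count as a working call, so cells of the highest scores were left out only as an alternative, and 7 GA and 14 control cells of the rule were among them.

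**Figure D1:**
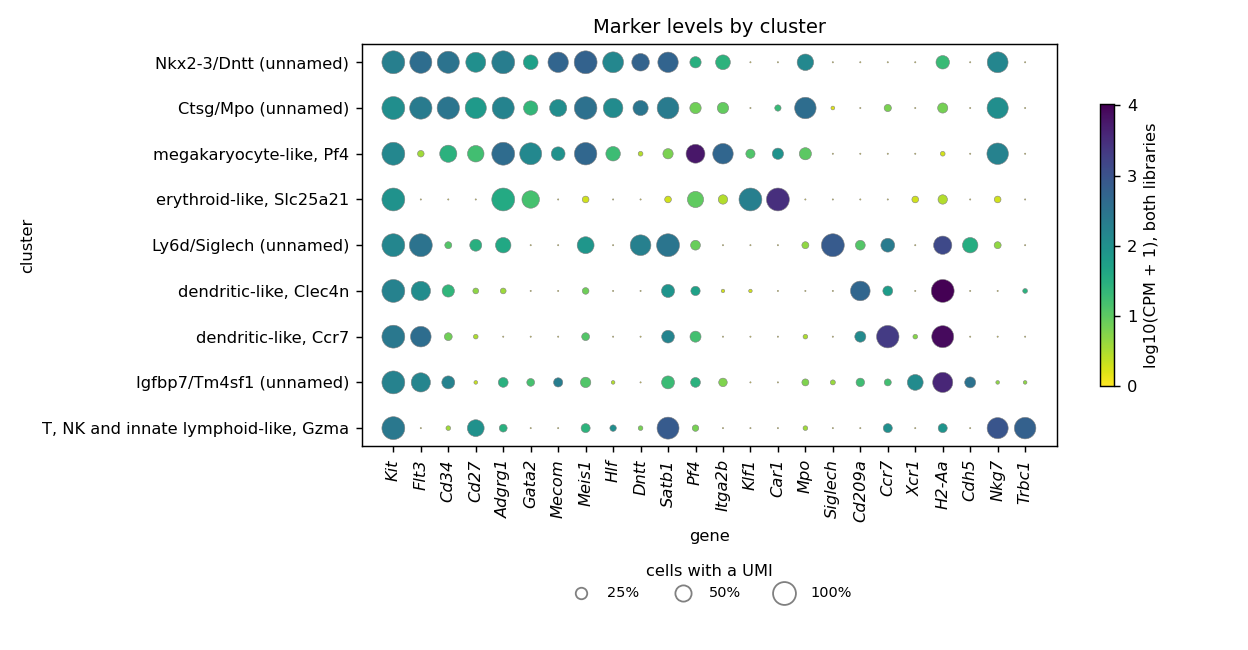
Level and detection of 24 genes in the 9 clusters, both libraries together; colour gives log10(CPM + 1) and dot size the share of cells with a UMI. Cd34, Adgrg1 and Meis1 mark the Nkx2-3/Dntt and Ctsg/Mpo clusters, Adgrg1, Meis1 and Gata2 also the megakaryocyte-like cluster, and H2-Aa the dendritic-like and mixed clusters.

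The first cluster, led by Nkx2-3 and Dntt, held 29 cells and had the fullest set of stem and progenitor genes. Cd34 was detected in 27 of 29 cells at 311 CPM, Adgrg1 in 29 of 29 at 211 CPM, Cd27 in 22 of 29 at 105 CPM and Gata2 in 12 of 29 at 54.2 CPM. The stem cell transcription factors Meis1, Mecom and Hlf stood at 592, 519 and 144 CPM. Mecom was close in the libraries, at 554 CPM in GA and 436 CPM in control. Flt3, a receptor of early lymphoid and myeloid progenitors, stood at 388 CPM, and Dntt, the terminal transferase that early lymphoid cells use on their antigen receptor genes, at 568 CPM in 17 of 29 cells. Satb1, a chromatin organiser of lymphoid-primed progenitors, reached 539 CPM, and Angpt1, the ligand of the Tie2 receptor, 888 CPM. Stem cell and lymphoid-primed markers were both raised and neither list led clearly, so no name was given. Asb4, the leading gene by fold, came from 3 GA cells, with 68 UMIs in 1 of them and no UMI in the 11 control cells, a count that allows up to 27.3% of cells.

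The second progenitor cluster held 41 cells and was led by Ctsg and Mpo at levels below the granule protein limit of the rule. Mpo, the myeloperoxidase gene, stood at 396 CPM and the protease genes Prtn3 and Ctsg at 421 and 278 CPM, while Elane was almost missing at 5.96 CPM. Cd34 was detected in 39 of 41 cells at 289 CPM, Adgrg1 in 38 of 41 at 162 CPM and Flt3 in 39 of 41 at 228 CPM. Meis1 and Mecom were lower than in the first cluster, at 343 and 113 CPM. Prtn3, which the rule limits, stood at 502 CPM in 29 GA cells and 163 CPM in 12 control cells, whereas Meis1 stood at 254 and 621 CPM, Hlf at 80.8 and 250 CPM and the phosphodiesterase gene Pde10a at 639 and 1922 CPM.

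The megakaryocyte-like cluster held 25 cells, 10 in GA and 15 in control, and 10 of the 12 listed megakaryocyte genes were raised in it. Pf4, the platelet chemokine, stood at 6356 CPM in GA and 5657 CPM in control but in only 17 of 25 cells, with up to 2471 UMIs in 1 cell. Itga2b, the alpha chain of the platelet fibrinogen receptor, stood at 435 and 568 CPM. Adgrg1 had its highest level of all clusters here, at 409 CPM with a UMI in 25 of 25 cells, and Gata2 stood at 136 CPM in 23 of 25. F2r, the thrombin receptor, reached 231 CPM. Cd34 was low at 27.4 CPM and Flt3 nearly missing at 2.74 CPM in 2 of 25 cells.

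The erythroid-like cluster was small, with 7 GA and 5 control cells, and uniform. Car1 and Car2, the carbonic anhydrases of early red cell precursors, stood at 2750 and 3273 CPM in GA and 3172 and 3774 CPM in control. The erythroid transcription factors Klf1 and Gata1 were detected in 12 of 12 cells at 200 and 127 CPM, and the erythropoietin receptor gene Epor at 81.6 CPM. Globin mRNA was still low, with Hbb-bs at 48.4 CPM. Adgrg1 was detected in 12 of 12 cells at 37.0 CPM, but Cd34, Cd27 and Flt3 in 0 of 12, a count that allows up to 25% of cells. The depth of these cells was high, at median UMIs of 74450 and 109166.

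Promoters were read for the 4 listed markers of highest fold in each of these 2 clusters, globins left out, and 7 of the 8 genes had an entry. They are shown to mark motifs of GATA and ETS proteins, 2 families of transcription factors of blood cells. The 4 sequences printed, are from RefSeq on GRCm38.p6, read 5′ to 3′ on the strand of the gene, from 250 bases before to 50 bases after its start. Capitals mark the GATA motif AGATAA or its reverse complement. Capitals also mark the ETS motif, spelled AGGAAG, or its reverse complement. The motifs do not overlap in the 4 windows. Pf4 is at chr5:90772185-90772484 on the plus strand, Itga2b at chr11:102469834-102470133 on the minus strand, Ermap at chr4:119189946-119190245 on the minus strand and Rhd at chr4:134864286-134864585 on the plus strand.
Pf4: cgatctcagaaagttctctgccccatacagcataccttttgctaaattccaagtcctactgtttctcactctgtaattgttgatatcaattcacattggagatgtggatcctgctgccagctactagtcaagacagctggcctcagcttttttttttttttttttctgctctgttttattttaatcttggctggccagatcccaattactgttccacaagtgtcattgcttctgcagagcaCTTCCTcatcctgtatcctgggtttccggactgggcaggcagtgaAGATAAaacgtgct
Itga2b: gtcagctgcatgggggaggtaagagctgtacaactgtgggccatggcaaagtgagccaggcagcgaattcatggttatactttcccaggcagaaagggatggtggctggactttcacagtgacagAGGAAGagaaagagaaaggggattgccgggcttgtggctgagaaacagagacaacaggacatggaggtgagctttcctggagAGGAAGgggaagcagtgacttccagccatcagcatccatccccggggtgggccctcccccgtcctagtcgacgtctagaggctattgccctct
Ermap: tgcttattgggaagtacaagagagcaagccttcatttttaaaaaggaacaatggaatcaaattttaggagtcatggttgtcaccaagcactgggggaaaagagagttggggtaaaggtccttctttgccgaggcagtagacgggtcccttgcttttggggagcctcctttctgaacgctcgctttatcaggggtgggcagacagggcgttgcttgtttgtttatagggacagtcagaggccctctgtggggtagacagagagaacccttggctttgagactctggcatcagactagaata
Rhd: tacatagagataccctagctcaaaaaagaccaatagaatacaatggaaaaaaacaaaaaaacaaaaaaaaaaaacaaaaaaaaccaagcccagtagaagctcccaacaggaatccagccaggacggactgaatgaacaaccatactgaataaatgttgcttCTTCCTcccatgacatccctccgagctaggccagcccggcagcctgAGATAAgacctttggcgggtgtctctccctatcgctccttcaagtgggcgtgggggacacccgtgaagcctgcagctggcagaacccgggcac
The Pf4 and Rhd windows each held 1 GATA and 1 ETS motif, the Itga2b window 2 ETS motifs and no GATA motif, and the Ermap window neither. Of all 32851 promoter windows in the table, 11.2% held the GATA motif, 35.4% the ETS motif and 4.05% both. Ermap and Rhd encode membrane proteins of red cells and stood at 343 and 231 CPM in the erythroid-like cluster. Treml1 and Cavin2 of the megakaryocyte-like cluster and Blvrb of the erythroid-like cluster were searched too, and only Cavin2 held a motif, 1 of the ETS type. A match is a description of letters and says nothing about binding.

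A cluster led by Ly6d and Siglech held 10 GA cells and 1 control cell. Ly6d, a surface marker of lymphoid progenitors, stood at 3895 CPM, and Siglech, a lectin of plasmacytoid dendritic cells, at 753 CPM in 11 of 11 cells. Tcf4, the factor that directs plasmacytoid dendritic cells, reached 2520 CPM and Flt3 305 CPM. Dntt, Il7r and Blnk, genes of early lymphoid cells, stood at 193, 625 and 829 CPM. Markers of lymphoid-primed and of dendritic cells were both high, so the cluster was left unnamed. Gata2 was detected in 0 of 11 cells, a count that allows up to 27.3%.

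Dendritic-like clusters held 75 cells, more than the Cd34-rich clusters. In the first, led by Clec4n, a lectin receptor, and Cd209a, a lectin of monocyte-related dendritic cells, Cd74 stood at 22192 CPM and H2-Aa, an MHC class II chain, at 10383 CPM with a UMI in 49 of 49 cells. Cd209a was detected in 36 of 49 cells at 512 CPM, Flt3 stood at 120 CPM, Cd34 at 23.4 CPM and Adgrg1 at 2.92 CPM. In the second, led by the lymph node homing receptor Ccr7 and the chemokine Ccl22, Ccr7 was detected in 25 of 26 cells at 2060 CPM, Ccl22 stood at 1034 CPM and Flt3 at 396 CPM. Adgrg1 and Gata2 had no UMI in these 26 cells, which allows up to 11.5% of cells.

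Lymphoid-like and mixed cells made up the rest. The T, NK and innate lymphoid-like cluster held 26 cells with Nkg7, a cytotoxic granule gene, at 907 CPM, the T cell receptor constant gene Trbc1 at 618 CPM in 23 of 26 cells, the NK receptor gene Ncr1 at 220 CPM and the granzyme gene Gzma at 969 CPM. Cd27 stood at 100 CPM in 14 of 26 of them, and Flt3 was detected in 0 of 26, which allows up to 11.5%. The mixed cluster led by Igfbp7 and Tm4sf1 held 44 cells and was not 1 cell type. In it, 3 GA and 6 control cells had 50 or more UMIs of endothelial genes such as Cdh5 (VE-cadherin), whereas 10 GA and 21 control cells had 50 or more UMIs of H2-Aa and Cd74 without that endothelial count. Xcr1 was detected in 21 of the 44 cells at 123 CPM and Clec9a in 27 of 44 at 109 CPM. The globin gene Hbb-bs stood at 1442 CPM in its control cells, and 1424 of its UMIs there came from 1 cell.

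**Figure D2:**
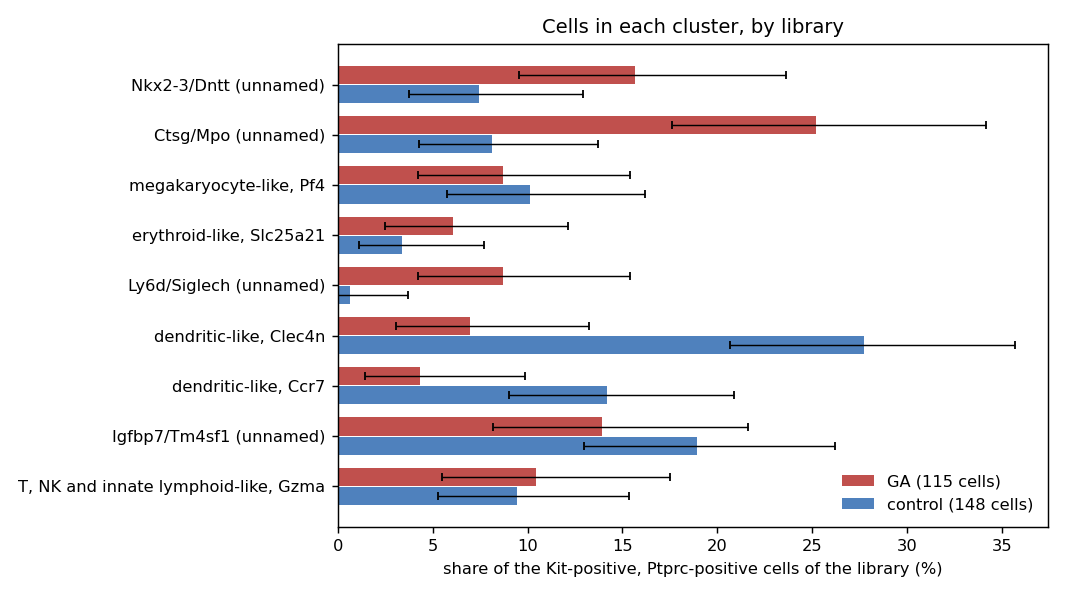
Share of the Kit-positive, Ptprc-positive cells of each library in each cluster, in percent; bars are the 115 GA and 148 control cells and error bars exact 95% intervals. The Ctsg/Mpo cluster holds 25.2% of the GA and 8.11% of the control cells, and the Clec4n dendritic-like cluster 6.96% and 27.7%.

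The population as a whole made up a smaller share of the GA library, by an amount that depended on the denominator. It was 1.27% (1.05 to 1.53) of all cells in GA and 1.83% (1.55 to 2.14) in control, a ratio of 0.696 (0.546 to 0.886). Against cells with a Ptprc UMI, the shares were 1.49% and 2.62% and the ratio 0.570 (0.448 to 0.726). The GA library held 4951 and the control library 2186 cells with S100a8 and S100a9 of at least 1%. Without these cells in the denominator, the shares of Ptprc-positive cells were 4.03% and 4.20% and the ratio 0.960 (0.756 to 1.22).

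The makeup of the population differed between the libraries as well. The Ctsg/Mpo cluster held 29 of 115 GA cells and 12 of 148 control cells (25.2% and 8.11%, ratio 3.11, 1.66 to 5.82) and the Nkx2-3/Dntt cluster 18 and 11 (15.7% and 7.43%, ratio 2.11, 1.04 to 4.28). Both together, called the Cd34 clusters from here on, held 40.9% of GA and 15.5% of control cells. As a share of all cells of the library they made up 0.520% in GA and 0.284% in control, a ratio of 1.83 (1.11 to 3.01). The dendritic-like clusters went the other way, with 13 GA and 62 control cells (11.3% and 41.9%, ratio 0.270, 0.156 to 0.466), which was 0.144% and 0.766% of all cells. The Ly6d/Siglech cluster held 8.70% of GA and 0.676% of control cells, the latter a single cell.

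Other clusters took shares whose intervals of the ratio included 1. The megakaryocyte-like cluster held 8.70% of GA and 10.1% of control cells (ratio 0.858, 0.40 to 1.84), the erythroid-like cluster 6.09% and 3.38% (ratio 1.8, 0.587 to 5.53), the lymphoid-like cluster 10.4% and 9.46% (ratio 1.10, 0.531 to 2.29) and the mixed cluster 13.9% and 18.9% (ratio 0.735, 0.418 to 1.29). Cells with 2 or more of Cd34, Cd27, Adgrg1 and Gata2 after thinning, a count that uses no clusters, were 36 of 114 in GA and 24 of 147 in control (31.6% and 16.3%, ratio 1.93, 1.23 to 3.05), and 35 and 21 of them were in the 3 marker clusters. Those clusters had the same ratio, 1.93 (1.39 to 2.69), which was 1.35 (0.954 to 1.90) at a clustering resolution of 2 and 1.38 (lower bound 0.974) after a log transformation, both with intervals that included 1. As a share of all cells of the library their ratio was 1.34 (0.892 to 2.02). A cell had to hold 2 Kit UMIs to be counted, so depth enters these shares, and the cells of the rule held more UMIs in GA.

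More cells held cell cycle transcripts in GA. After thinning to 5000 UMIs, 84 of 114 GA cells (73.7%, 64.6 to 81.5) and 65 of 147 control cells (44.2%, 36 to 52.6) had 3 or more UMIs from at least 2 genes of the S phase list, a ratio of 1.67 (1.35 to 2.06). The G2/M list gave 73 of 114 (64.0%) and 52 of 147 (35.4%), a ratio of 1.81 (1.40 to 2.34). Without thinning the shares were 97.4% and 84.5% for S phase and 85.2% and 62.8% for G2/M. Over both libraries, the S phase gate was met by 14.8% of the S100a8 and S100a9 cells and 20.6% of the collagen cells, and the G2/M gate by 18.0% and 15%, which gives the level in cells of other kinds.

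The gates differed widely between clusters. The GA share was the higher in 6 of the 9 clusters for either gate, equal in 1 and lower in 2, the Ly6d/Siglech cluster with 1 control cell and the Ccr7 dendritic-like cluster. In the Cd34 clusters the S phase gate was met by 43 of 47 GA and 17 of 23 control cells (91.5% and 73.9%) and the G2/M gate by 37 of 47 and 15 of 23 (78.7% and 65.2%), with intervals that overlapped. All 12 erythroid-like cells met both gates. In the Clec4n dendritic-like cluster 2 of 8 GA and 9 of 41 control cells met the S phase gate, and in the Ccr7 dendritic-like cluster 0 of 5 and 2 of 21. In the mixed cluster 56.3% of 16 GA and 39.3% of 28 control cells met the S phase gate and 62.5% and 35.7% the G2/M gate. In the lymphoid-like cluster the shares were 72.7% and 53.8% for S phase and 45.5% and 30.8% for G2/M. The intervals of the libraries overlapped within each of the 9 clusters. The granule-protein progenitors, the 90 GA and 23 control cells left out by the granule protein limit alone, met the S phase gate in 88 and 23 cells.

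**Figure D3:**
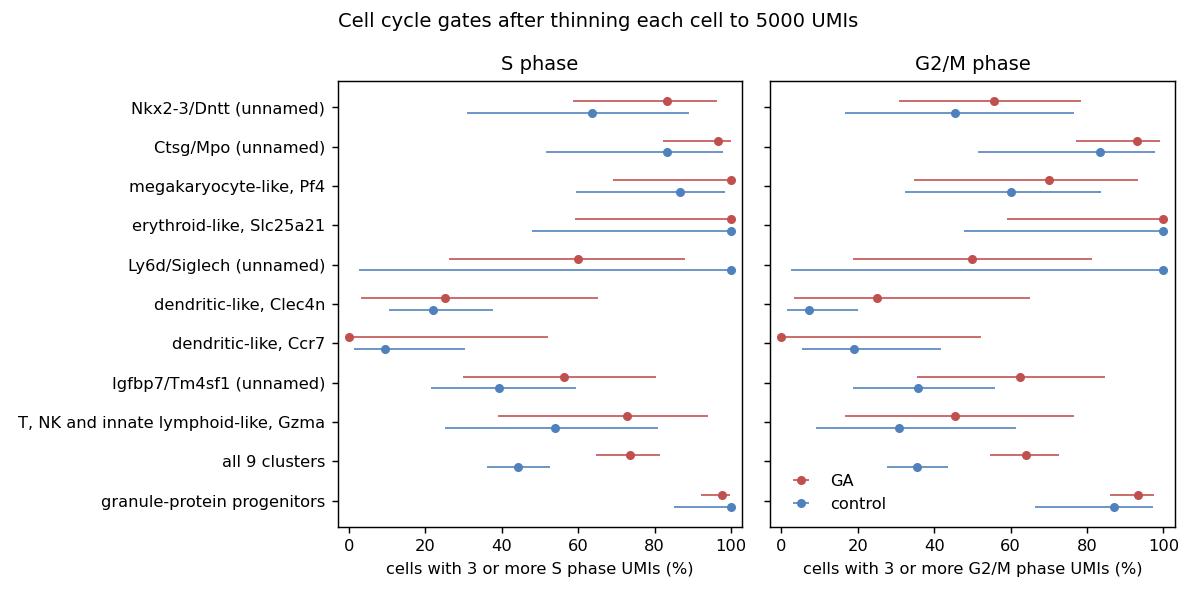
Share of cells with 3 or more UMIs of S phase genes (left) and G2/M genes (right) after thinning to 5000 UMIs, in percent, by cluster and library; points are shares and bars exact 95% intervals. For all 9 clusters together the S phase shares are 73.7% in GA and 44.2% in control, and the dendritic-like clusters lie lowest.

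Summed over all cells of the rule, leading genes of the dendritic-like clusters were among those of lowest ratio, GA over control, and granule and S100 genes among those of highest ratio. Of 6304 genes with 200 or more UMIs, 63 (0.999%) were higher and 313 (4.97%) lower in GA by a log2 ratio of CPM of 1 or more, around a median of 0.08. The split depended on how cells were weighted, with 387 higher and 361 lower when each cell was thinned to 5000 UMIs, and 208 and 275 with the mean CPM per cell. Genes were named if they had at least 20 positive cells and no cell above 20% of their UMIs. Within these limits the genes of highest ratio included Cox6a2, Prtn3, Ctsg, S100a8, Mpo, S100a9, Rab44, Gria3, Ngp and Ikzf2. Ly6d (4.69) lay higher and is not among them. Cox6a2, a cytochrome oxidase subunit and a leading gene of the Ly6d/Siglech cluster, stood at 85.5 CPM in GA and 7.57 CPM in control, a log2 ratio of 3.50 (2.97 to 4.07). Prtn3 stood at 216 and 31.2 CPM (2.79, 2.53 to 3.07), Ctsg at 102 and 20.3 CPM and Mpo at 157 and 35.7 CPM. The rule itself limits these granule genes and the S100 genes in every cell. Ikzf2, a zinc finger factor of the Ikaros family, stood at 181 and 54.2 CPM, a log2 ratio of 1.74.

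Within the same limits the 10 genes of lowest ratio were Clec4n, Zfp366, Mgl2, H2-DMb2, Dab2, Creb5, Slamf9, Spint1, Mreg and Dcstamp. Hbb-bs (-4.93), Hba-a2 (-4.60) and Hba-a1 (-3.75) lay lower and are not among them. Nor is Rgs5, with 0 UMIs in GA and 228 in control. Clec4n stood at 12.8 CPM in GA and 115 CPM in control, a log2 ratio of -3.17 (-3.61 to -2.76). Mgl2, a lectin of dendritic cells and macrophages, stood at 12.6 and 82.6 CPM, Zfp366, a zinc finger factor of dendritic cells, at 12.6 and 83.7 CPM, and H2-DMb2, a peptide-loading chain, at 15.7 and 99.6 CPM. Clec4n, Mgl2 and Slamf9 lead the first dendritic-like cluster and Mreg the second. When the clusters with 5 or more cells in each library were weighted alike, 1.92% of the genes passed the fold in place of 5.96%, and 8 of the 20 named genes.

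**Figure D4:**
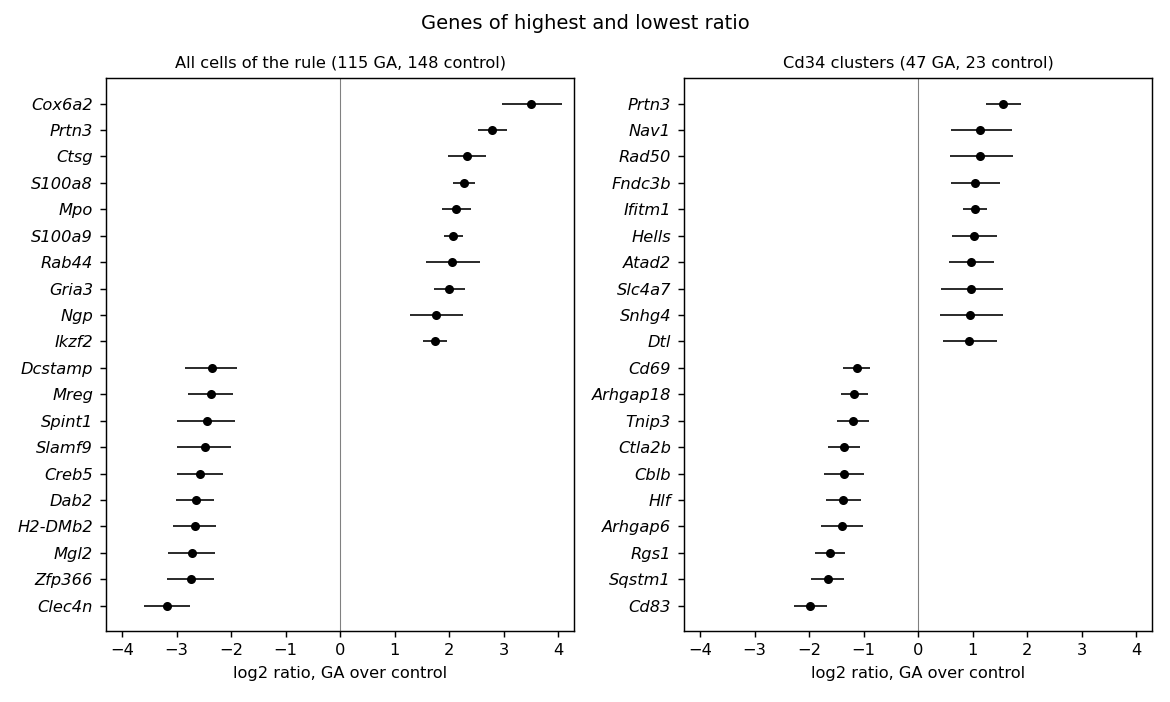
Log2 ratio of CPM, GA over control, for the 10 named genes of highest and the 10 of lowest ratio in all cells of the rule (left) and in the Cd34 clusters (right); bars are exact 95% intervals from UMI counts. In all cells the ratios of these named genes run from 3.50 for Cox6a2 to -3.17 for Clec4n, and in the Cd34 clusters from 1.56 for Prtn3 to -1.98 for Cd83.

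Genes were also compared by lists written for these cells. For lists, genes with 50 or more UMIs were used. Of all 10286 such genes, 240 (2.33%) were higher and 658 (6.4%) lower in GA by a log2 ratio of 1 or more, and the median was 0.08. All 9 MHC class II genes lay below 0, 8 of them at -1 or less, with a median of -1.59 and a summed level of 6190 CPM in GA and 19732 CPM in control. The type I interferon response list had 6 of 18 genes at -1 or less, Isg15 and Ifit1 among them, and a median of -0.74. With clusters weighted alike that median was 0.14. In the cytokine receptor list, 3 of 24 genes were at -1 or less, namely Csf1r, the macrophage growth factor receptor gene, at 14.0 and 44.2 CPM, Csf2rb at 99 and 213 CPM and Il7r at 49.6 and 143 CPM, and none at 1 or more.

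Cell cycle and growth lists lay above 0. All 25 S phase genes and all 28 G2/M genes had a ratio above 0, with medians of 0.67 and 0.54, and Cdc6, Ung, Dtl and Hells of the S phase list passed a log2 ratio of 1. The nucleolar and Myc target list had 19 of 20 genes above 0 (median 0.30) and the oxidative phosphorylation list 21 of 22 (median 0.20), none of them past 1. The median of all genes was itself above 0, at 0.08. The glycolysis list had a median of 0.01. The quiescence list, with the cell cycle inhibitors Cdkn1a, Cdkn1b, Cdkn1c and Cdkn2c, had 2 of 13 above 0 and a median of -0.20. Those 2 were Cdkn2c at 16.0 and 8.52 CPM (0.91, 0.30 to 1.54) and Nr4a1 (0.40).

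The lymphoid-primed list had a median of 0.65, which was -0.21 with 4 or more Kit UMIs required. In it 3 of 11 genes were at 1 or more, namely Ly6d at 256 and 9.94 CPM, Dntt at 183 and 55.6 CPM and Ighm at 108 and 44.2 CPM, and Il7r was below -1. In GA 1048 of the 1058 Ly6d UMIs came from the Ly6d/Siglech cluster. In the Cd34 clusters Ly6d went the other way, at 2.71 and 26.3 CPM (-3.27, -5.07 to -1.78). The summed level of the lymphoid-primed list was 2120 CPM in GA and 2232 CPM in control, and the T, NK and innate lymphoid list had a median of -0.24. The dendritic list had a median of -0.82, but Siglech (44.5 and 6.86 CPM) and Spib (15.5 and 3.79 CPM), both genes of plasmacytoid cells, were higher in GA by over 1. Tcf4, also a plasmacytoid gene, stood at 420 and 463 CPM (-0.14), and Bst2 at 198 and 181 CPM (0.13). The granulocyte progenitor list had 3 of 7 genes at 1 or more, the granule genes named above, all of them limited by the rule. Its other measured genes, Igfbp4, Csf3r, Gstm1 and Cebpa, stood at log2 ratios of 0.75, 0.85, 0.40 and -0.29. The stem cell list had 0 of 13 at 1 or more and Procr, Fgd5 and Esam at -1 or less, and its median was -0.29. Procr, the endothelial protein C receptor of long-term stem cells and vessels, stood at 13.6 CPM in GA and 42.6 CPM in control. Of the control UMIs, 43 of 180 for Procr, 4 of 56 for Fgd5 and 1 of 162 for Esam were in the Cd34 clusters. Within those clusters Procr stood at -1.77, Fgd5 at -0.51 (-2.41 to 1.67) and Esam at 1.95 (-0.83 to 7.38). Over all cells of the rule, the erythroid and megakaryocyte lists had medians of -0.28 and -0.29. In the first the 4 globin genes were the ones at -1 or less, but 1 control cell of the mixed cluster held 1424 of the 1493 control UMIs of Hbb-bs. Without that cell, left out after the data were seen, Hbb-bs stood at 11.6 and 16.4 CPM in place of 11.6 and 353 CPM, no gene of the list with 50 or more UMIs was at -1 or less, and the median was -0.14.

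Of 24 genes of Kit signalling, 18 lay below 0 and none passed the fold in either direction, with a median of -0.30 and a summed level of 2402 CPM in GA and 3018 CPM in control. Without Kit itself, which the rule used, 17 of 23 lay below 0 and the median was -0.28. The lowest included the transcription factor gene Mitf (-0.98) and Stat5a (-0.77). The kinase genes Lyn and Jak2 stood at 302 and 156 CPM in GA and 435 and 299 CPM in control, the adaptor gene Gab2 at 240 and 280 CPM, and Stat5b, a transcription factor downstream of the receptor, at 94.9 and 88.5 CPM. Among 29 haematopoietic transcription factors, 20 lay above 0 and the median was 0.29. Ikzf2 passed the fold upwards at 181 and 54.2 CPM and Zbtb16 downwards at 16.7 and 34.1 CPM. Myb, needed by cycling progenitors, stood at 139 and 70.3 CPM (0.99), Runx1 at 635 and 571 CPM and Spi1 at 181 and 270 CPM. In the list of homing and retention genes, Ccr9 was higher and Itga5, S1pr1, Ccr7, Esam, Robo4 and Ackr3 lower by 1 or more, while Cxcr4, the receptor that holds progenitors in marrow, stood at 56.4 and 62.7 CPM.

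Markers of other cell types were checked in every library. All 7 measured genes of the mature neutrophil list were higher in GA by 1 or more, with a median of 1.75. All 10 listed genes of this mature neutrophil list had a UMI in both libraries, their summed level was 747 CPM in GA and 184 CPM in control, and S100a9 was the most abundant at 328 and 77.6 CPM. S100a8 stood at 1008 CPM in GA and 151 CPM in control even in collagen cells, which should lack it, so its share in the result of the S100 and Ngp genes was not tested. In the endothelial and mural list, 6 of 9 genes were at -1 or less, the summed level was 274 CPM in GA and 536 CPM in control, Pecam1 was the most abundant gene at 152 and 153 CPM, and Rgs5 was at 0 in GA. The mesenchymal list summed to 326 and 606 CPM, with all 10 genes detected in both libraries and Col1a2 (108 CPM in GA) and Col1a1 (158 CPM in control) the most abundant. The macrophage list had 4 of 10 genes at -1 or less and a median of -0.82. The part of these other cell types in the result was not tested.

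**Figure D5:**
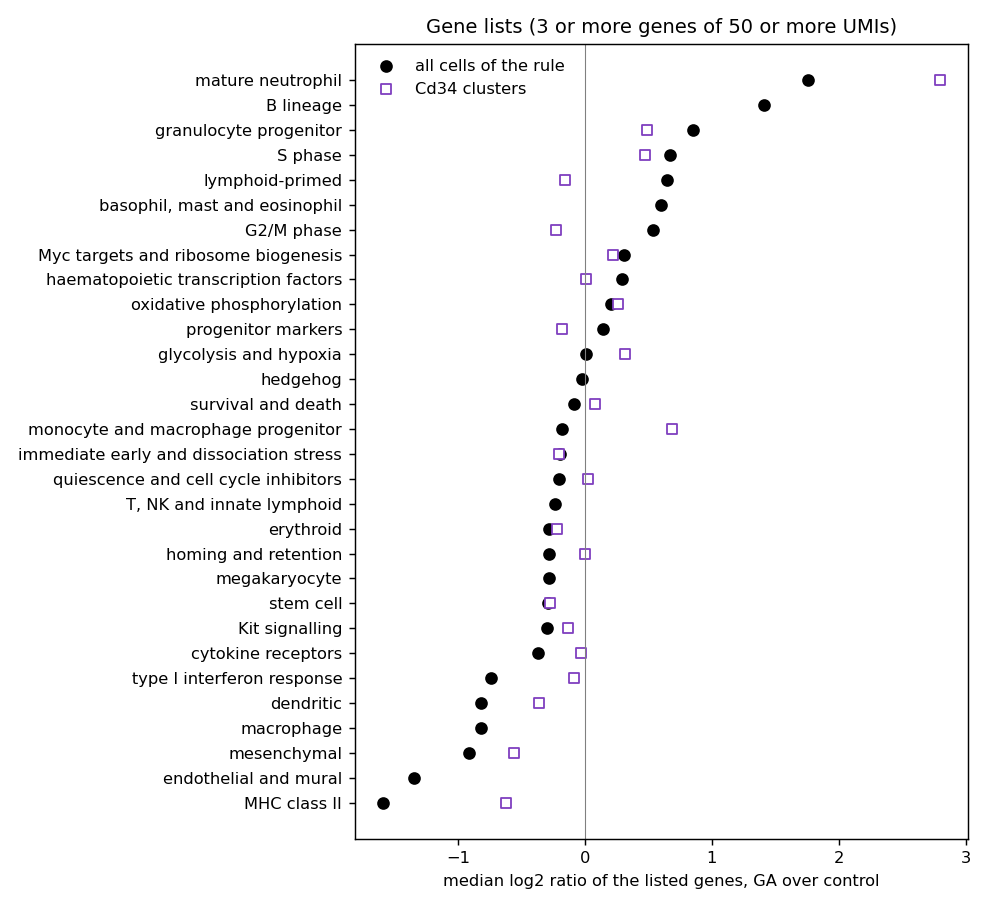
Median log2 ratio, GA over control, of the genes of each list with 50 or more UMIs, for lists with at least 3 such genes; black points are all cells of the rule and open squares the Cd34 clusters. MHC class II lies lowest among all cells at -1.59, and mature neutrophil genes highest at 1.75, with 2.79 in the Cd34 clusters. The rule limits S100a8 and S100a9 of that list, and 2.79 is the ratio of S100a9 itself.

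The libraries were also compared inside the Cd34 clusters, 47 GA and 23 control cells. Of 2214 genes with 200 or more UMIs, 10 (0.452%) were higher and 16 (0.723%) lower in GA by a log2 ratio of 1 or more. With each cell thinned to 5000 UMIs, 133 were higher and 65 lower. Genes with 50 or more UMIs gave 160 (2.44%) higher and 86 (1.31%) lower of 6547. Cd34 stood at 286 and 324 CPM, Adgrg1 at 177 and 181 CPM and Cd27 at 85.2 and 69.5 CPM. Flt3 stood at 271 and 306 CPM, Mecom at 241 and 256 CPM, Dntt at 389 and 337 CPM and Hoxa9 at 74.9 and 89.6 CPM. These lay within a log2 ratio of 0.50 in either direction, whereas Gata2 stood at 25.5 and 52.5 CPM (-1.04) and Meis1 at 366 and 587 CPM (-0.68, -0.86 to -0.50).

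Genes of the Cd34 clusters were named within limits on positive cells and on the UMI share of 1 cell. The rule for this naming was set after the data were seen. Those of highest ratio were, in order, Prtn3, Nav1, Rad50, Fndc3b, Ifitm1, Hells, Atad2 and Slc4a7. S100a8 (3.20) and S100a9 (2.79), which the rule for the cells limits, lay higher and are not among them. Prtn3 stood at 419 CPM in GA and 142 CPM in control (log2 ratio 1.56, 1.25 to 1.89). Ifitm1, an interferon-induced membrane protein gene, stood at 628 and 306 CPM (1.04, 0.82 to 1.26), and Hells, a chromatin remodeller of S phase, at 185 and 91.1 CPM (1.02, 0.62 to 1.44). Within the same limits the genes of lowest ratio were Cd83, Sqstm1, Rgs1, Arhgap6, Hlf, Cblb, Ctla2b, Tnip3, Arhgap18 and Cd69. Cd83, a surface protein of activated lymphoid and dendritic cells, stood at 86.3 and 340 CPM (-1.98, -2.28 to -1.68), Rgs1, a brake on chemokine receptor signals, at 119 and 365 CPM, and Cd69, an activation antigen, at 166 and 363 CPM. Genes of the immediate early and dissociation stress list went both ways. Hspa1a stood at 259 and 542 CPM (-1.07) and Ier3 at 185 and 366 CPM (-0.98). Fos stood at 834 and 650 CPM (0.36) and Hspa8 at 1778 and 1579 CPM (0.17). The part of such stress in these values was not tested. The stem cell factor Hlf stood at 91.2 and 236 CPM (-1.37, -1.70 to -1.05), and Procr at 19.5 and 66.4 CPM. Of the 8 stem cell genes measured, 2 lay above 0 and Hlf and Procr at -1 or less.

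Cycle lists parted in the Cd34 clusters. Of 24 S phase genes, 23 lay above 0 with a median of 0.47, and Rrm2, Cdc6, Ung, Hells and Ccne2 passed 1. Of 28 G2/M genes, 10 lay above 0 and the median was -0.23. The monocyte progenitor list had 8 of 8 genes above 0 (median 0.69), with Ccr2, F13a1 and Ms4a6c past 1. Over all cells of the rule, 5 of its 11 measured genes lay above 0 and the median was -0.18. There Ly6c2 was at 1 or more and Csf1r, Klf4 and Fcgr1 at -1 or less. F13a1, a coagulation factor gene of monocytes, stood at 31.5 and 1.54 CPM, the latter a single UMI. The mature neutrophil list summed to 879 CPM in GA and 124 CPM in control, with S100a9 most abundant at 440 and 63.3 CPM and Mmp8 and Ly6g at 0 in control, and the part of such RNA in the other values was not tested.

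The Cd34 clusters were set against the granule-protein progenitors in each library, and the genes named were chosen by the smaller ratio of the libraries. The rule split these populations by granule genes, so Elane, Ctsg, Prtn3 and Mpo are no finding. Outside them, Ms4a3, a gene of granulocyte and monocyte progenitors, stood at 8.14 CPM in the GA and 1.54 CPM in the control Cd34 clusters against 942 and 808 CPM in the granule-protein progenitors. Ly6c2, a surface protein of monocytes and committed myeloid progenitors, stood at 7.6 and 7.72 CPM against 603 and 1058 CPM. In the other direction Mecom stood at 241 and 256 CPM against 8.30 and 1.93 CPM, Pde10a at 600 and 1217 CPM against 17.3 and 41.6 CPM, and Ctla2a at 1026 and 2152 CPM against 54.5 and 95.7 CPM. Flt3 stood at 20.2 and 17.4 CPM in the granule-protein progenitors.

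Against all other cells of the bone, the genes most raised in both libraries included the progenitor genes Hoxa9, Flt3 and Meis1 and the erythroid genes Car1 and Car2. Among the 20 with the highest ratio, Hoxa9, a homeobox gene of haematopoietic progenitors, stood at 37.5 and 19.4 CPM against 1.6 and 0.277 CPM. Flt3 stood at 185 and 136 CPM against 7.79 and 5.84 CPM, Meis1 at 241 and 156 CPM against 11.7 and 8.62 CPM, and Car1 at 384 and 394 CPM against 9.30 and 18.1 CPM. The 12 erythroid-like cells held 3116 of the 3252 Car1 UMIs, and the level in the cells of the rule outside that cluster was 18.6 CPM over both libraries. Slc22a3, an organic cation transporter gene, stood at 42.1 and 26.5 CPM against 1.18 and 0.539 CPM, and Htr7, a serotonin receptor gene, at 64.9 and 167 CPM against 3.89 and 4.61 CPM.

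Of 14 hedgehog genes 4 reached 50 UMIs, and their median was -0.02. The hedgehog receptor gene Ptch1 stood at 14.3 and 14.4 CPM, Smo at 10.4 and 10.6 CPM and Sufu at 27.8 and 26 CPM, while Cdon, a co-receptor gene, stood at 7.51 and 14.4 CPM (-0.94, -1.62 to -0.30). Kitl, the ligand gene, came from 2 GA and 7 control cells at 26.9 and 51.3 CPM, whereas collagen cells held it in 54.0% and 43.6% of cells at 46.3 and 30.9 CPM.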

How the data were processed

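Libraries were prepared from pooled cells of 5 mice per condition with 10x Genomics Chromium 3′ chemistry. Per the labels and methods, the authors aligned reads to mm10 with Cell Ranger (7.0.1 in the matrix headers) and deposited UMI counts per gene and barcode, without normalization. The authors' notes describe doublet removal by Scrublet, but 286 GA and 625 control barcodes of the deposited counts lay outside the cell limits, so the limits were applied again. Counts were read as deposited with Python 3.11.15, numpy 2.4.6, scipy 1.17.1, pandas 2.3.3 and Scanpy 1.11.5. Cells were chosen by the rule, summed per library and expressed as CPM, and GA was compared with control by the log2 ratio of CPM for genes with at least 200 UMIs (50 for lists). The pseudobulk count model of the study needs replicates and was not used, as each condition was 1 library. Gates needed 3 UMIs from 2 genes after thinning to 5000 UMIs and were averaged over 20 draws. Clustering used 2000 variable genes, Pearson residuals (theta 100), 30 components, 15 neighbours and Leiden resolution 1 (igraph 0.11.9), without batch correction. The log2 ratio of summed UMIs and its interval were tested on simulated Poisson counts, which hold no spread between cells. Ratios of shares, gates and clusters were not simulated. The cells, the 32 gene lists and the rules for named genes were chosen with earlier results of these data known. Named genes were the markers of the rule, the most abundant genes of each list and those past the fold, the 10 highest and 10 lowest by ratio with at least 20 positive cells and no cell above 20% of the UMIs, the 20 highest over all other cells, and the leading genes of each cluster; some genes are not reported here. Cluster groupings, population cuts and named genes of the Cd34 clusters were set after the data were seen. Gene positions are from GENCODE vM21 on mm10.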

Additional observations from a re-analysis of the deposited data

Results flagged for a closer look

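Of the genes named in the Cd34 clusters, 3 had a log2 ratio of GA over control of clearly opposite sign in the granule-protein progenitors. Only genes whose interval kept to 1 sign in each population were counted, so others of opposite sign are left out. These are the cells left out by the granule protein limit alone. Nav1, a microtubule-associated protein gene, was at 1.14 in the Cd34 clusters and -0.73 in the granule-protein progenitors, Rad50, a subunit of the DNA break repair complex, at 1.14 and -0.36, and Fndc3b, a fibronectin domain protein gene, at 1.04 and -0.64. Each condition was 1 library and the control library had 23 cells of either population, so the difference was not tested.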

How the results depend on the processing

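No paired analysis was possible because each condition was 1 library. The share ratio of 0.696 was 0.529 when Kit was required after thinning and 0.960 when S100-rich cells left the denominator, and 0.570 to 0.751 under 8 other settings. The share of genes past the fold, 5.96%, was 11.0% with Kit required after thinning, 11.9% with all cells thinned (48.3% of these lower in GA, against 83.2%) and 1.92% with clusters weighted alike. With the mean CPM per cell it was 7.66%, of which 56.9% were lower. Of 32 lists, 14 had a median beyond 0.50 in either direction, and 6 with clusters weighted alike. The G2/M ratio of 1.81 was 1.36 without thinning, and the S phase ratio of 1.67 was 1.15 without thinning, 1.34 at 10000 UMIs and 2.13 for a gate of 5 UMIs. The ratio for the 3 marker clusters, 1.93, was 1.35 at resolution 2 and 1.38 after a log transformation. In the Cd34 clusters, 1.17% of genes passed the fold, 8.94% with cells thinned (32.8% of these lower in GA, against 61.5%) and 3.76% of genes with 50 or more UMIs; these alternatives were chosen after seeing the data. Sign changes were counted only for the 14 lists with a median beyond 0.50, and 4 of them changed sign. These included lymphoid-primed (-0.21) and B lineage (-1.71) with 4 or more Kit UMIs. The others were basophil, mast and eosinophil (-0.12) with granule proteins below 0.1% and type I interferon response (0.14) with clusters weighted alike. The cause of these changes was not tested. The ratio for the dendritic-like clusters stayed between 0.270 and 0.403, and all 20 genes named over all cells kept their sign in the 12 settings tried, though with clusters weighted alike 8 of them passed the fold. Of the 20 genes named in the Cd34 clusters 16 passed the fold, and 10 still did with the highest Scrublet scores left out, 13 with both clusters weighted alike, 14 with cells thinned and 15 with the mean CPM per cell. Small cell numbers limit the values: the Cd34 clusters of the control library held 23 cells, the Ly6d/Siglech cluster 1.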
